A study of Mus musculus with 12 samples.

Results

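The microRNAs miR-151 and miR-423 were followed as their 4 mature strands, mmu-miR-151-3p, mmu-miR-151-5p, mmu-miR-423-5p and mmu-miR-423-3p (miR-151-3p and so on below), which are 4 of the 1915 miRNA names in the deposited table. miR-151-3p and miR-423-5p had been selected on their own levels, because both were higher at 10 ng than at 100 ng of RNA before oxidation, and the opposite arm of each hairpin was added. The 10 ng against 100 ng values before oxidation are therefore given as a description, without a test.

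The libraries held small RNAs of 17 to 40 nt from testis total RNA of C57BL/6 male mice at an age of 4 months, made by the method that the labels call 10ng-seq. RNA was sequenced after and before oxidation with sodium periodate (NaIO4), at 10, 50 and 100 ng of total RNA, which gave 6 groups of 2 technical replicates, or 12 libraries. The volume of spike-in RNA followed the input. With technical replicates, each p-value below measures how libraries vary, and says nothing of how mice vary.

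A miRNA is cut from the stem of a folded hairpin transcript, and either arm of the stem, 5p or 3p, can be loaded into an Argonaute protein and guide it to messenger RNAs through the seed, bases 2 to 8. The arm that is not loaded is usually degraded, so the ratio of the arms in cells reflects the strand choice of a hairpin. The inputs here are amounts of total RNA, and the part of strand choice in the differences between them was not tested. Periodate oxidizes RNA ends with free 2' and 3' hydroxyls and blocks their ligation, whereas a 2'-O-methyl end, as on piRNAs, is protected. Most mammalian miRNAs carry free hydroxyls. Both hairpins are expressed in many tissues, and in human liver cancer cells miR-151-5p has been studied as a promoter of cell migration.

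In GENCODE M21 (GRCm38) Mir423 lay at chr11:77078064-77078172 on the minus strand, in an intron of Nsrp1, which encodes a splicing regulator. The hairpin began 263 bases after the start of that gene. Mir151 lay at chr15:73254815-73254882 on the minus strand, in an intron of Ptk2, which encodes focal adhesion kinase. An intron of 1700085D07Rik, an antisense gene on the plus strand, also covered Mir151. The RefSeq sequences of both miR-423 arms (GRCm38.p6) are shown because their base composition is described below. Capitals mark the seed in the mature strands and the 2 arms in the hairpin.
mmu-miR-423-5p: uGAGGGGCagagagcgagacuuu
mmu-miR-423-3p: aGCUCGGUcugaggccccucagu
Mir423 hairpin: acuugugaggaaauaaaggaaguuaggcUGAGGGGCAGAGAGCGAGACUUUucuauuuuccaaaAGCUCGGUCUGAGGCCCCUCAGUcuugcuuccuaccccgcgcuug
mmu-miR-6921-5p: uGAGGGGCaugagguaggaagc
The last strand is shown because it was the only other mature miRNA in the RefSeq table with the seed of miR-423-5p. It was listed at 0 in all 12 libraries, so miR-423-5p held all reads with that seed among the strands of that table. No other strand had the seed of miR-423-3p. None of the 1018402 sequences of the deposited piRNA table, which were 17 to 40 nt long, lay within the Mir423 hairpin or its complement.

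Levels are given as RPM (reads scaled to the size of the library), with the reads recovered from the RPM values beside them. The libraries were scaled to 1924201 to 3347735 reads, of which 625 to 937 were miRNA reads after oxidation, against 326701 to 454158 before oxidation. A count of 3 reads in a library was worth 0.896 to 1.56 RPM. All 4 strands passed the filter of a mean of 5 RPM over the 12 libraries, as did 141 miRNAs in all. miR-151-3p and miR-423-3p passed only through the 10 ng libraries before oxidation, without which their means were 3.43 and 4.07 RPM. Before oxidation the summed miRNA level was 116696 and 119672 RPM at 10 ng, 130591 and 128125 RPM at 50 ng, and 135591 and 138463 RPM at 100 ng. The input comparisons below thus run against a total that was lower at 10 ng, and the median difference of the 141 miRNAs is given with them.

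Before oxidation every strand was highest at 10 ng and lowest at 100 ng, but the arms differed in how much. In RPM, miR-151-3p stood at 56.8 and 48.6 with 10 ng, at 13.6 and 9.26 with 50 ng, and at 4.72 and 5.49 with 100 ng. Its reads numbered 159 and 134 with 10 ng, 35 and 31 with 50 ng, and 14 and 18 with 100 ng. The inputs did not overlap, and the mean of 52.7 ± 5.76 RPM at 10 ng was 10.3 times the mean of 5.10 ± 0.542 RPM at 100 ng (SD, n = 2 each). The opposite strand, miR-151-5p, was the more abundant arm and varied far less. It had 662 and 766 RPM at 10 ng, 635.9 and 618.3 RPM at 50 ng, and 499 and 505 RPM at 100 ng. The mean of 714 ± 73.4 RPM at 10 ng was 1.42 times the mean of 502 ± 4.55 RPM at 100 ng (SD, n = 2 each), again without overlap.

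Both arms of miR-423 changed by like factors. miR-423-5p, the more abundant arm, had 306 and 396 RPM at 10 ng, 125 and 121 RPM at 50 ng, and 81.3 and 74.4 RPM at 100 ng. Its mean was 351 ± 63.9 RPM at 10 ng and 77.8 ± 4.87 RPM at 100 ng (SD, n = 2 each), a ratio of 4.51. miR-423-3p had 37.1 and 34.1 RPM at 10 ng, 12.4 and 14.6 RPM at 50 ng, and 8.77 and 4.57 RPM at 100 ng. Its mean was 35.6 ± 2.14 RPM at 10 ng and 6.67 ± 2.97 RPM at 100 ng, a ratio of 5.34. At 100 ng miR-423-3p rested on 26 and 15 reads, and there the replicates stood further apart relative to their mean than in the other 2 inputs.

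**Figure D1:**
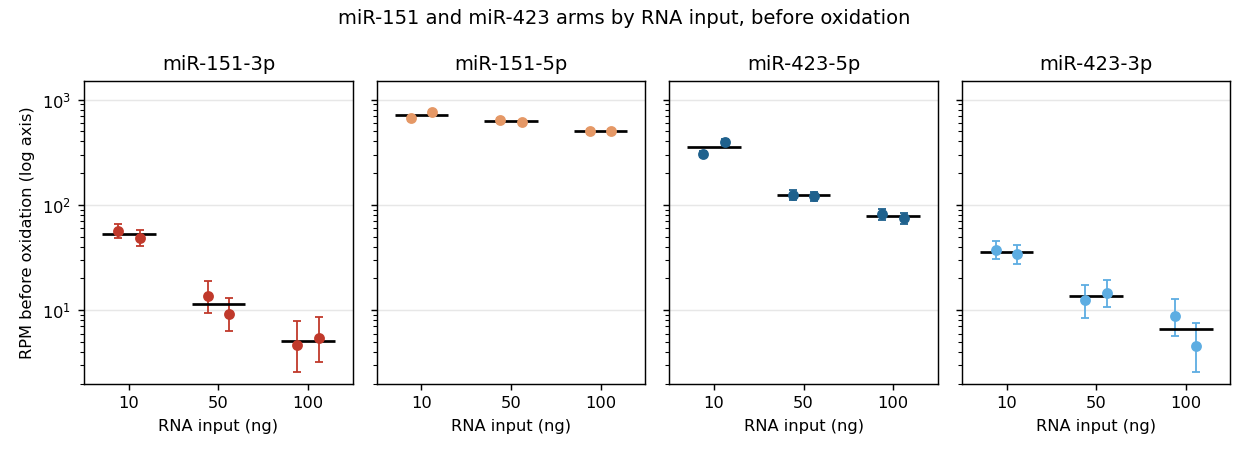
RPM before oxidation (log axis) of the 4 strands at 10, 50 and 100 ng of RNA. Points are libraries with exact 95% Poisson intervals of their reads, which cover counting error only, and black lines are group means; miR-151-3p spans 4.72 to 56.8 RPM, whereas miR-151-5p spans 499 to 766 RPM.

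An ordering of the inputs without overlap was found in all 4 strands. The same ordering, 10 above 50 above 100 ng, was found in 27 of the 141 miRNAs (19.1%), and the opposite one in 40. Because the selection used the 10 and 100 ng libraries, nothing is read from the count in the 4 strands. On the log2(RPM + 1) scale, the difference of 10 minus 100 ng was 3.14 for miR-151-3p, 2.31 for miR-423-3p, 2.15 for miR-423-5p and 0.50 for miR-151-5p. These values ranked 3, 5, 6 and 31 among the 141 miRNAs, whose median was -0.49 and whose range was -2.80 to 4.31. In that contrast 27 of 141 miRNAs were called higher at 10 ng by limma at an adjusted p below 0.05 (19.1%), and 49 lower. Scaled to the spike-in reads, the differences were 3.66, 2.84, 2.72 and 1.08 in the same order, with a median of 0.08 over all 141, and under quantile normalization that of miR-151-5p was 0.

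**Figure D2:**
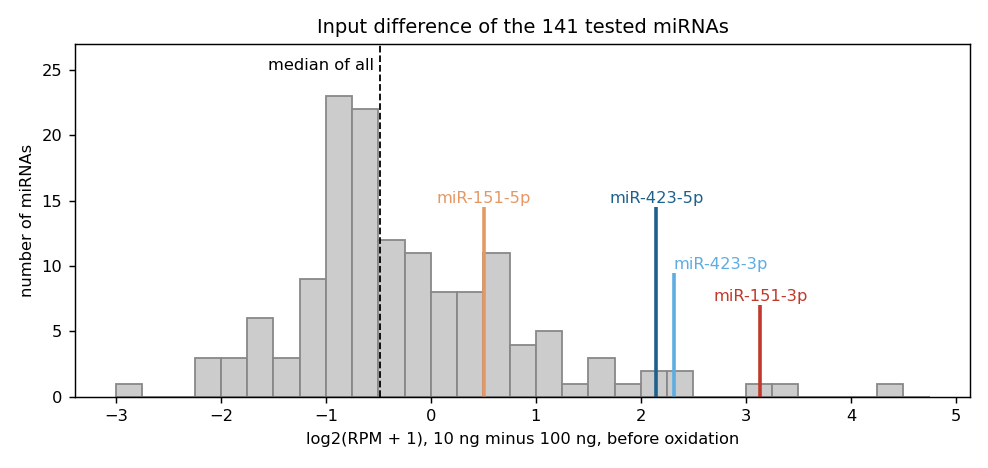
Histogram of the difference in log2(RPM + 1), 10 ng minus 100 ng before oxidation, over the 141 tested miRNAs (bins of 0.25, height is the number of miRNAs). Vertical lines mark the 4 strands, whose heights carry no meaning, and the dashed line the median of -0.49; miR-151-3p, miR-423-3p and miR-423-5p lie in the upper tail and miR-151-5p, at 0.50, nearer the middle.

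Between 50 and 100 ng the differences were smaller, with a median log2 difference of -0.06 over the 141 miRNAs. The means at 50 ng were 2.24 times those at 100 ng for miR-151-3p, 2.03 times for miR-423-3p, 1.58 times for miR-423-5p and 1.25 times for miR-151-5p. This comparison shares the 100 ng libraries with the selection, so no p is given for miR-151-3p and miR-423-5p. The added arms rest on the same 100 ng libraries, and miR-423-3p varied with miR-423-5p before oxidation (Pearson r = 0.957). Their p-values are thus not free of the selection. For the added arms, limma gave a log2 difference of 0.97 ± 0.25 (SE) with an adjusted p of 0.0804 for miR-423-3p, which is in the tested set only through 10 ng, and 0.32 ± 0.42 (SE) with an adjusted p of 0.793 for miR-151-5p. Neither passed the threshold of 0.05 over 141 miRNAs, and in this contrast limma called 0 higher (0%) and 0 lower (0%), while 24 had an unadjusted p below 0.05. The SE draws on the spread within all 6 groups, not only the 4 libraries compared. For miR-151-5p that spread includes 0.598 and 3.47 RPM at 100 ng after oxidation. A limma fit of only the 4 libraries called 20 higher and 22 lower. On recovered reads edgeR called 7 higher and 4 lower, and DESeq2 called 19 higher and 16 lower. miR-151-5p did pass in DESeq2 (log2 difference 0.29, adjusted p = 0.000469) and in a limma fit of only the 4 libraries compared (0.32, adjusted p = 0.00316). For miR-423-3p the difference was 1.38 without 100 ng replicate 1 and 0.57 without replicate 2, and each rests on only the other 100 ng library.

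The 2 hairpins differed in how the arms were divided. Of the reads on both arms of miR-151, the 3p arm held 7.9% and 5.97% with 10 ng, 2.09% and 1.48% with 50 ng, and 0.938% and 1.07% with 100 ng. The exact binomial 95% intervals ran from 5.03% to 9.16% at 10 ng, from 1% to 2.89% at 50 ng and from 0.514% to 1.69% at 100 ng, and cover counting error only. The intervals at 10 ng lay above all those at the other 2 inputs, and those at 50 and 100 ng overlapped. This is a description and no test, since miR-151-3p was selected for being higher at 10 than at 100 ng. For each 3p read of miR-151 there were 11.7 and 15.7 reads of 5p with 10 ng, 46.9 and 66.8 with 50 ng, and 106 and 92.1 with 100 ng. For miR-423 the 3p arm held 10.8% and 7.93% with 10 ng, 9.01% and 10.8% with 50 ng, and 9.74% and 5.79% with 100 ng. These shares overlapped between all 3 inputs, and the lowest belonged to 100 ng replicate 2, with 15 reads of miR-423-3p.

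As log2(5p/3p) on RPM + 1, the arm ratio of miR-151 changed by -2.63 ± 0.31 (SE, 2 libraries each) at 10 against 100 ng and by -0.68 ± 0.31 at 50 against 100 ng. That of miR-423 changed by -0.16 ± 0.32 and -0.32 ± 0.32 in the same comparisons and so by no more than about 1 standard error. These ratios hold the selected strands and so carry no test. Among the 24 hairpins with both arms at a mean of 5 RPM or more before oxidation, the median size of the change at 10 against 100 ng was 0.71, and 9 changed by more than 1. The change of miR-151 was exceeded by that of miR-202, a hairpin of Sertoli cells, at -3.56, and was followed by that of miR-871, of an X-linked testis cluster, at -1.99. In miR-202 the 3p share was 33.3% and 43.4% with 10 ng, 7.47% and 7.69% with 50 ng, and 4.38% and 4.73% with 100 ng. There and in miR-871 the arms moved in opposite directions, with log2 differences of 10 minus 100 ng of -1.47 (5p) and 2.09 (3p) for miR-202 and -0.79 (5p) and 1.21 (3p) for miR-871, whereas both arms of miR-151 were higher at 10 ng. Both arms were higher at 10 ng in 7 of the 24 hairpins, and by more than 2 on the log2 scale in 1, miR-423. The change was negative, toward 3p at 10 ng, in 20 of 24 hairpins. The 24 are not independent, as miR-465a, miR-465b and miR-465c had identical 3p values. All of these are among the 20, and miR-465a and miR-465c are among the 7.

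**Figure D3:**
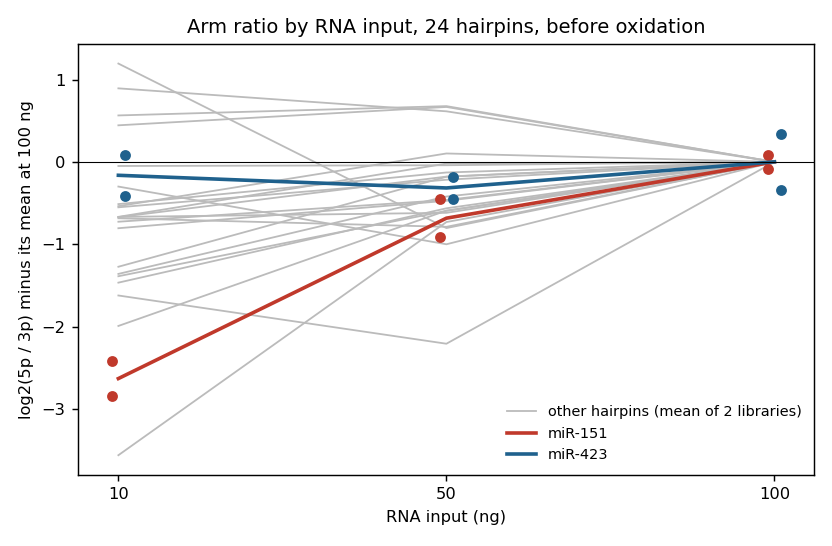
Change of log2(5p/3p) from its mean at 100 ng (vertical axis) by RNA input in ng before oxidation, for 24 hairpins with both arms at 5 RPM or more. Coloured lines and points are the means and the single libraries of miR-151 and miR-423, and grey lines are the means of the other hairpins; miR-151 reaches -2.63 at 10 ng and the means of miR-423 stay within 0.32 of its mean at 100 ng.

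By sequence, both arms of miR-423 were rich in G and C. Neither arm of miR-151 had a sequence in the RefSeq set used here, so miR-151 is not part of this description. miR-423-3p had 65.2% G and C, the highest of the 123 tested miRNAs with a RefSeq sequence and equal to that of miR-298-5p, whose difference of 10 minus 100 ng was -0.66, and miR-423-5p had 56.5%, against a median of 45.5%. Over these 123 miRNAs the share of G and C and the difference of 10 minus 100 ng had a Pearson r of 0.27 and a Spearman rho of 0.23, given as a description across miRNAs of the same libraries. The run of 4 G in the seed of miR-423-5p was the longest G run of the 123, shared with miR-361-5p, whose difference was 1.00. The part of base composition in the input differences was not tested.

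By pattern over the 6 libraries before oxidation, the miRNAs most like each strand were taken by Pearson r of log2(RPM + 1), as a description of libraries that share inputs. miR-151-3p was most like miR-465a-3p, miR-465b-3p and miR-465c-3p (r = 0.994), near-identical members of an X-linked cluster with identical values in every one of these libraries and means of 251.3, 185.3 and 153.5 RPM at 10, 50 and 100 ng. The likeness is one of order and shape, since r ignores the size of a change. miR-151-5p was most like let-7d-5p (r = 0.960), miR-26a-5p (0.958) and miR-191-5p (0.954). miR-423-5p was most like miR-375-3p (r = 0.997), miR-202-3p (0.997) and let-7e-5p (0.994). miR-423-3p was most like miR-7217-3p (r = 0.986), let-7c-5p (0.985) and let-7a-5p (0.984). Between arms of 1 hairpin r was 0.957 for miR-423 and 0.883 for miR-151.

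miR-28 and miR-708 belong with miR-151 to the mir-28 family. Their 6 names summed to 3.57 to 6.17 RPM at 10 ng, 6.87 to 9.31 RPM at 50 ng and 13.2 to 14.0 RPM at 100 ng before oxidation, and to 0 RPM after it. None of the 6 passed the filter, and 3 were at 0 in every library before oxidation. Of 8 miRNAs often used as references in PCR work, such as miR-16-5p, miR-103-3p and miR-191-5p, all 8 were tested. Their median difference was -0.43 for 10 minus 100 ng and -0.12 for 50 minus 100 ng, beside -0.49 and -0.06 over all 141, and limma called 0 of 8 in the second contrast, where it called 0 of all 141. The 8 were not uniform. miR-191-5p averaged 6546, 6054 and 5432 RPM at 10, 50 and 100 ng, and miR-103-3p 47.2, 96.6 and 125.1 RPM.

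The label of testis was checked against cell markers. The 10 germ cell miRNAs, the X-linked cluster and the miR-34 family, summed to 40780 to 41960 RPM at 10 ng, 45780 to 45930 RPM at 50 ng and 49280 to 49430 RPM at 100 ng before oxidation. The sums at 10, 50 and 100 ng were 105 to 110, 171 to 175 and 187 to 200 RPM for the Sertoli cell pair, and 8940 to 9180, 12050 to 12100 and 13430 to 13630 RPM for the smooth muscle pair. The smooth muscle sum was nearly all miR-143-3p. The other member of the pair, miR-145a-5p from a different hairpin, averaged 5.21, 3.69 and 15.1 RPM and did not pass the filter. The blood cell list of 7 stayed between 2.24 and 7.76 RPM, with 0 of 7 tested and with miR-223-3p and miR-142a-3p at 0. The vessel pair summed to 53.4 to 66.1, 66.6 to 72.5 and 83.5 to 85.0 RPM, and the liver pair, led by miR-192-5p, to 188.8 to 189.3, 269.7 to 298.6 and 257.9 to 263 RPM. None of these sums was highest at 10 ng, but some members were. At 10, 50 and 100 ng the germ cell strands miR-470-5p and miR-871-3p averaged 7809, 5187 and 4583 RPM and 6871, 3409 and 2980 RPM. In the same order miR-202-3p of Sertoli cells averaged 41.3, 13.1 and 8.80 RPM, and miR-122-5p of liver 3.94, 1.03 and 0.490 RPM. In such bulk RNA, fewer cells of a type and less RNA per cell cannot be told apart, and the part of cell makeup in the input differences was not tested.

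Few reads of the 4 strands were left after oxidation. At 50 ng, where neither group had a part in the selection, the difference of after minus before oxidation in log2(RPM + 1) was -3.61 ± 0.34 for miR-151-3p, -8.81 ± 0.42 for miR-151-5p, -6.96 ± 0.20 for miR-423-5p and -3.86 ± 0.25 for miR-423-3p (SE). After oxidation miR-151-3p, miR-423-5p and miR-423-3p had no read at 50 ng, so their sizes reflect the starting level and the value added to RPM. With 0.1 added in place of 1, the 4 differences were -6.82, -10.31, -10.27 and -7.09, against a median of -8.9. With 10 added they were -1.09, -5.94, -3.73 and -1.23, against a median of -3.12. The limma adjusted p-values were 3.44e-06 for miR-151-3p, 1.98e-08 for miR-151-5p, 6.34e-10 for miR-423-5p and 2.09e-07 for miR-423-3p, and all 4 were also called with no filter on low values. In that contrast 135 of the 141 miRNAs were called lower (95.7%), with a median of -6.22, so 4 of 4 is near what the table as a whole gave. All 4 were also lower after oxidation when scaled to the spike-in reads. In edgeR with TMM none of the 4 was called at 50 ng. When each library was rescaled to its own miRNAs, miR-151-3p and miR-423-3p turned positive at 50 ng with centring on the library median, quantile normalization or DESeq2, and miR-151-5p and miR-423-5p stayed called with centring alone.

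Averaged over 50 and 100 ng the differences were -2.81 ± 0.24 for miR-151-3p, -8.18 ± 0.30 for miR-151-5p, -6.43 ± 0.14 for miR-423-5p and -3.27 ± 0.18 for miR-423-3p (SE). They are a description, as the 100 ng libraries before oxidation had a part in the selection. Over all 141 miRNAs the median of this average was -6.21, and 136 were called lower (96.5%). The 8 reference miRNAs were also all called lower, with a median of -7.18.

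The single libraries show how little was left. miR-151-5p had 0.462 and 1.04 RPM at 10 ng, 0.349 and 0.445 RPM at 50 ng, and 0.598 and 3.47 RPM at 100 ng after oxidation, from 1, 2, 1, 1, 2 and 11 reads. miR-423-5p had 0.462 and 1.04 RPM at 10 ng, 0 RPM in both libraries at 50 ng, and 0.299 and 0.316 RPM at 100 ng, from 5 reads in all. miR-151-3p was at 0 in 5 libraries and at 1.26 RPM, or 4 reads, in 100 ng replicate 2. miR-423-3p was at 0 in 5 libraries and at 0.316 RPM, or 1 read, in that same library. The libraries after oxidation lay below every library before oxidation for each strand.

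**Figure D4:**
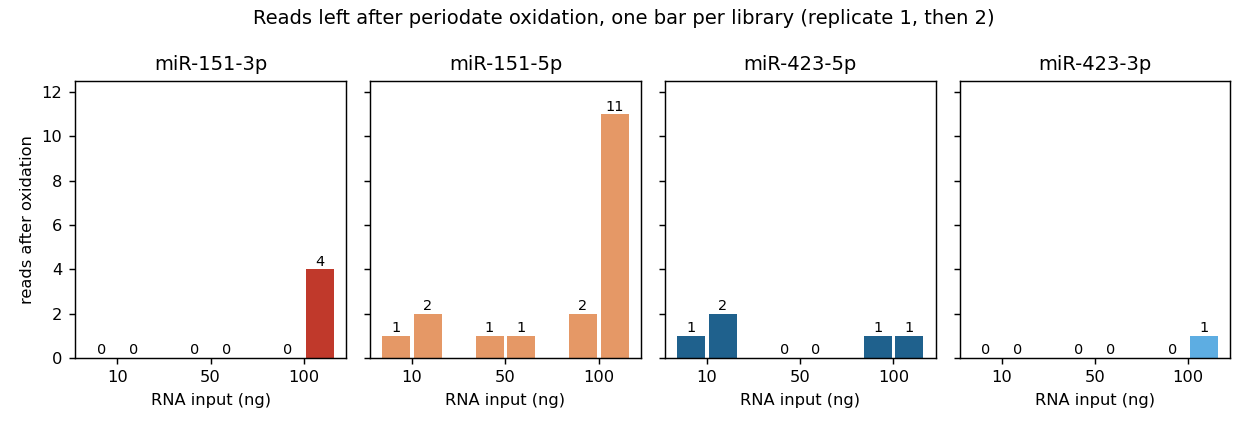
Reads of the 4 strands in each library after oxidation, by RNA input in ng, with the read number above each bar and the bars of replicate 1 and replicate 2 side by side. All bars are at 11 reads or fewer, and the tallest bar of both miR-151 strands belongs to 100 ng replicate 2; before oxidation the same strands had 14 to 2110 reads per library.

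The 10 and 100 ng values of oxidation are a description, as these inputs before oxidation chose the strands. In pooled reads, miR-151-5p was 972-fold lower after oxidation at 10 ng (exact 95% interval 332 to 4720, counting error only), 1600-fold lower at 50 ng (443 to 13200) and 252-fold lower at 100 ng (147 to 473). At 100 ng 11 of its 13 reads came from replicate 2, without which it was 840-fold lower (232 to 6940). For miR-423-5p the fold was 478 (163 to 2320) at 10 ng, at least 209 at 50 ng, where no read was left, and 253 (69.6 to 2090) at 100 ng. Bounds were taken against 3 reads over the group. miR-151-3p was at least 71.9-fold lower at 10 ng, at least 19-fold lower at 50 ng and 8.34-fold lower (2.96 to 32.5) at 100 ng, where all 4 reads came from replicate 2, without which it was at least 5.72-fold lower. miR-423-3p was at least 48.6-fold lower at 10 ng, at least 23.3-fold lower at 50 ng and 42.8-fold lower (7.26 to 1730) at 100 ng, where its 1 read came from replicate 2, without which it was at least 7.32-fold lower.

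After oxidation limma called none of the 4 strands between inputs with all 12 libraries. For 10 minus 100 ng the log2 differences were -0.59 for miR-151-3p, -0.63 for miR-151-5p, 0.40 for miR-423-5p and -0.20 for miR-423-3p, with limma adjusted p-values of 0.659, 0.77, 0.521 and 1. For 50 minus 100 ng they were -0.59, -0.94, -0.39 and -0.20 in the same order, with adjusted p-values of 0.447, 0.424, 0.447 and 0.933. The median over all 141 was 0 in both contrasts. Over the whole table limma called 2 of 141 miRNAs in the first contrast (1.42%) and 6 in the second (4.26%). Of the reads left after oxidation, 100 ng replicate 2 held 11 of 18 for miR-151-5p and 4 of 4 for miR-151-3p. Without that library the difference of miR-151-5p was 0.11 for 10 minus 100 ng, and without 100 ng replicate 1 it was -1.37. Each rests on only the other 100 ng library after oxidation. The input differences seen before oxidation were not detectable at this depth after it.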

How the data were processed

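The authors deposited miRNA and piRNA tables in RPM and a spike-in table of raw read counts; what the RPM were scaled to is not given in sources used here. Bowtie and the builds mm10 and hg38 are named, per the submitters' processing notes. The denominator was recovered from the step of 1 read in the deposited piRNA RPM values, of which 100% were whole reads within 0.01 of a read; of the miRNA values 93.24% to 100% were whole, the rest sixths, and they were rounded for edgeR and DESeq2.

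Log2(RPM + 1) of the 141 miRNAs with a mean of at least 5 RPM entered a limma-trend model (R 4.3.3, limma 3.58.1) of 6 group means over 12 libraries with a shared spread, 2-sided, with Benjamini-Hochberg adjustment over the 141 and a threshold of 0.05. Alternatives were pseudocounts of 0.1 and 10, other filters, centring, quantile and spike-in scaling, edgeR 4.0.16 with TMM, DESeq2 1.42.0, a replicate block, only the groups compared, and each library left out. The fits were tested on simulated data. Intervals on reads are exact (95%) and cover counting error only, since reads are not independent molecules. Replicates differed by more than sampling noise.

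The strands, the lists and the tests were chosen with earlier results of these data known. Named were the 4 strands, miRNAs of the same seed, the 3 most correlated miRNAs per strand, list members, and the 3 largest arm changes; miR-361-5p and miR-298-5p were named after their values were seen. Tests of 50 against 100 ng for the selected strands and for arm ratios, and of oxidation at 100 ng and averaged over 50 and 100 ng, were planned but are given without p, since they share libraries with the selection.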

Additional observations from a re-analysis of the deposited data

How the results depend on the processing

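Limits first: after oxidation each strand rested on 0 to 11 reads per library, and miR-151-3p and miR-423-3p on 14 to 35 and 15 to 49 reads at 50 and 100 ng before it. Replicate numbers did not pair libraries (correlation of deviations -0.197 to 0.175 over 15 pairs of groups, 2 above 0.1). The replicate block left every strand's difference and call as it was (-2.81, -8.18, -6.43 and -3.27 for the averaged oxidation of miR-151-3p, miR-151-5p, miR-423-5p and miR-423-3p, in this order throughout). A filter of 50 RPM gave no value for both 3p strands. Where a cause is not stated it was not tested.

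Oxidation at 50 ng became 2.64 and 2.4 for miR-151-3p and miR-423-3p with centring, and 0.75, -1.52, -0.94 and 0.62 with quantile normalization. It became -7.02, -1.11, -10.46 and -7.29 in edgeR with TMM, where none was called (adjusted p of 0.799, 0.695, 0.634 and 0.799). In DESeq2 it was 3.07, -0.31, -0.39 and 2.8. The average over 50 and 100 ng became 3.5, -1.87, -0.12 and 3.04 with centring, 1.56, -0.91, -0.05 and 1.21 with quantile normalization, -0.46, 0.05, -4.62 and -1.77 in edgeR, and 4.8, 0.65, 0.61 and 3.47 in DESeq2. The median of all 141 for the average was 0.11, -0.26, -4.62 and 0.83 in these settings. Centring and quantile normalization by construction set the libraries' miRNA levels equal. The scaling in edgeR and DESeq2 was also drawn from the miRNA reads, and its part in their values was not tested. Spike-in scaling gave -3.97, -9.68, -7.67 and -4.38. Pseudocounts of 0.1 and 10 gave -5.32, -9.31, -8.92 and -6.03, and -0.8, -5.68, -3.41 and -0.97. Of the 141 miRNAs 136 were called lower in the average, against 62 with centring, 40 with quantile normalization, 12 in edgeR and 6 in DESeq2. With no filter 297 were called lower, and with a filter of 50 RPM 66. Here and below, counts with no filter and at 50 RPM come from a larger and a smaller tested set than the 141.

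For 50 minus 100 ng before oxidation, miR-151-5p was called at 0.32 with a pseudocount of 10 and with only the groups compared, and at 0.29 in DESeq2. miR-423-3p was called at 0.51 with a pseudocount of 10 and at 1.15 with spike-in scaling, and leaving out a library gave 0.57 to 1.38. Higher and lower calls, 0 and 0, were 19 and 21 with a pseudocount of 10, 5 and 13 with no filter, 0 and 2 at 50 RPM, 15 and 8 with spike-in scaling, 20 and 22 with only the groups compared, and up to 4 and 9 with a library left out. miR-151-3p became 0.5 with a pseudocount of 10, and miR-423-5p 0.78, 0.73 and 0.77 with centring, quantile and spike-in scaling.

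For 10 minus 100 ng before oxidation, miR-151-3p was 3.34 and 2.05 with pseudocounts of 0.1 and 10, 3.52 centred, 3.31 quantile, 3.66 spike-in and 3.43 TMM. miR-151-5p was 0.88, 0, 1.08 and 0.82 with centring, quantile, spike-in and TMM scaling, miR-423-5p 2.53, 2.72 and 2.46 with centring, spike-in and TMM, and miR-423-3p 1.46 with a pseudocount of 10 and 2.84 with spike-in scaling. The 27 miRNAs called higher were 12 with a pseudocount of 0.1, 13 at 50 RPM, 14 with quantile, 47 with spike-in scaling and 42 in edgeR. With a pseudocount of 10 the arm ratio of miR-151 changed by -1.55 at 10 and -0.18 at 50 against 100 ng, and that of miR-423 by 0.56 and 0.09. With 1 library left out the ratio of miR-423 ran from -0.5 to 0.18 and from -0.66 to 0.03.

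After oxidation, leaving out a library gave -1.18 to 0 for miR-151-3p in both input contrasts, and for miR-151-5p -1.37 to 0.11 (10 minus 100 ng) and -1.68 to -0.19 (50 minus 100 ng). The lowest of each came without 100 ng replicate 1 and rests on replicate 2 alone at 100 ng. miR-423-5p was called at -2.03 for 50 minus 100 ng with a pseudocount of 0.1.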
